A study of Oryza sativa with 20 samples.

Results

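Transcript levels of genes around brassinosteroid inactivation were followed in stem bases of rice seedlings in which the root regulator CRL1 could be switched on. The genes were those of the CYP734A family that the array annotation names, CYP734A4 (LOC4341450) and CYP734A6 (LOC4325222), and BHLH172 (LOC4340551; also BU1 and ILI4). Probe sets were taken by gene annotation. This gave 3 of 17905 genes with a probe set of their own, with 1 probe set each of 57381 on the array, and all 3 passed the filter on low signals. The RefSeq table names 4 CYP734A genes. CYP734A2 and CYP734A5 were paired with no probe set and were not analysed here. CYP734A4, CYP734A6 and BHLH172 had been picked because of their change after dexamethasone in the lines with the CRL1 transgene. Their values in those lines are therefore given as a description without a test. The response within the control lines was not itself a basis of the choice and was tested. The control arrays do enter the difference from the CRL1 lines, which was used in the choice, so this test is not fully independent of it. The error of this test was estimated from all 20 arrays, those of the CRL1 lines included.

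Brassinosteroids are plant steroid hormones that promote cell elongation and division. Enzymes of the CYP734A family are cytochrome P450 monooxygenases that hydroxylate the side chain of active brassinosteroids and their precursors and so inactivate them, and rice plants that overexpress them are dwarfed. The hormone is perceived at the cell surface by the receptor kinase BRI1 with its co-receptor BAK1. Signalling then restrains GSK3-like kinases such as GSK2 and lets BZR transcription factors act. BHLH172 is a small helix-loop-helix protein without a DNA-binding region, is itself induced by brassinosteroids in rice and promotes the bending of the leaf joint.

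The genetic background of every plant was the crl1 mutant, named for crown rootless 1, of the rice cultivar Taichung 65. CRL1 is a LOB-domain transcription factor needed for crown root formation. In 3 independent transformation events, here called CRL1 lines 1, 2 and 3, the mutant carried pINDEX2-CRL1, which expresses the CRL1 coding sequence upon dexamethasone treatment. The submitters had selected these homozygous single-locus lines for CRL1 induction and for crown root formation after dexamethasone. Control line 1 was the untransformed mutant and control line 2 the mutant with empty pINDEX2, so that only 1 of the 2 control lines carried the vector. Seedlings of 8 days received 10 µM dexamethasone or a mock treatment of 0.5‰ ethanol, and stem bases were taken after 4 h or 8 h. Each line gave 1 array per treatment and time, made from pooled RNA of 20 stem bases, for 20 arrays in all with 3 in each CRL1 line group and 2 in each control line group. The lines of a group are its replicates, and no line was sampled more than once under a condition.

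Values are MAS5 signals, scaled by the submitters to the same trimmed mean on every array, with array medians of 10.1 to 15.5. Arrays of control line 1 correlated less with the other arrays (mean r of 0.922 to 0.944) than most others did (0.925 to 0.959). No probe set was paired with CRL1, so the transgene itself was not followed. Of the shoot meristem markers measured, OSH1, a KNOX homeobox gene, was the brightest, between 439.6 and 1018 on all arrays. OSH43 was the dimmest, between 8.8 and 39.8. In a bulk sample, more cells of a type and more RNA per cell cannot be told apart.

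CYP734A4 had a low and even signal on every array without induced CRL1 and was far brighter on all 6 arrays of the CRL1 lines after dexamethasone. At 4 h its signal went from 30.8 to 136.6 in CRL1 line 1, from 21.3 to 157.7 in line 2 and from 26.8 to 72.7 in line 3. At 8 h it went from 20.8 to 393.6 in line 1, from 28.9 to 678.7 in line 2 and from 31.8 to 334.3 in line 3. All 3 lines had the higher signal after dexamethasone at both times, and no dexamethasone value came near a mock value. Within a line the ratio was 2.71 to 7.40 at 4 h and 10.5 to 23.5 at 8 h, largest in line 2 and smallest in line 3 both times. On the log2 scale, with 1.7 added to each signal, the change was 2.09 ± 0.33 at 4 h and 3.98 ± 0.33 at 8 h (SE of the limma fit, 3 lines). The 8 h change ranked 46 from the top among 32836 probe sets tested. Its position on the array moved from the percentiles 58.3 to 62.4 after mock treatment to 71.8 to 80.7 at 4 h and 89.1 to 94.9 at 8 h.

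CYP734A6 had a moderate signal in mock-treated plants, and its change at 4 h was smaller than that of CYP734A4. At 4 h CRL1 line 1 had a signal of 98 with mock treatment and 188.2 with dexamethasone. The pair was 143 and 328.2 in line 2, and 113.8 and 162.9 in line 3. At 8 h the pairs were 125.1 and 365.1 in line 1, 111.5 and 657.3 in line 2, and 96.5 and 735.9 in line 3. The groups did not overlap at either time, though at 4 h the lowest dexamethasone signal lay just above the highest mock signal. The ratio within a line was 1.43 to 2.29 at 4 h and 2.92 to 7.63 at 8 h. On the log2 scale it changed by 0.88 ± 0.30 at 4 h and 2.33 ± 0.30 at 8 h. Line 3 had the smallest change of the lines at 4 h (0.51) and the largest at 8 h (2.91), whereas line 1 had the smallest at 8 h (1.53). At 4 h the order of the lines was the same for both CYP734A genes, with line 2 highest and line 3 lowest, and at 8 h it was not.

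BHLH172 moved in the opposite direction, with lines that differed at 4 h and were alike at 8 h. At 4 h CRL1 line 1 had 112.3 with mock treatment and 122.6 with dexamethasone, and the pairs were 269.5 and 133 in line 2 and 198.7 and 34.2 in line 3. Line 1 thus showed no decrease at 4 h, line 2 showed less than its later change (log2 change of -1.01 against -2.36), and line 3 already had nearly its full change (-2.48). At 8 h the signal was 156.3 and 40.4 in line 1, 242.9 and 46.1 in line 2, and 126.7 and 19.2 in line 3. Every dexamethasone array at 8 h was below every mock array, and the mock signal was 3.87 to 6.60 times the dexamethasone signal within a line. On the log2 scale the values were -1.12 ± 0.49 at 4 h and -2.29 ± 0.49 at 8 h. The latter was the change of rank 19 from the bottom among the probe sets tested. Its mock signals differed between the CRL1 lines, from 112.3 to 269.5 at 4 h.

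**Figure D1:**
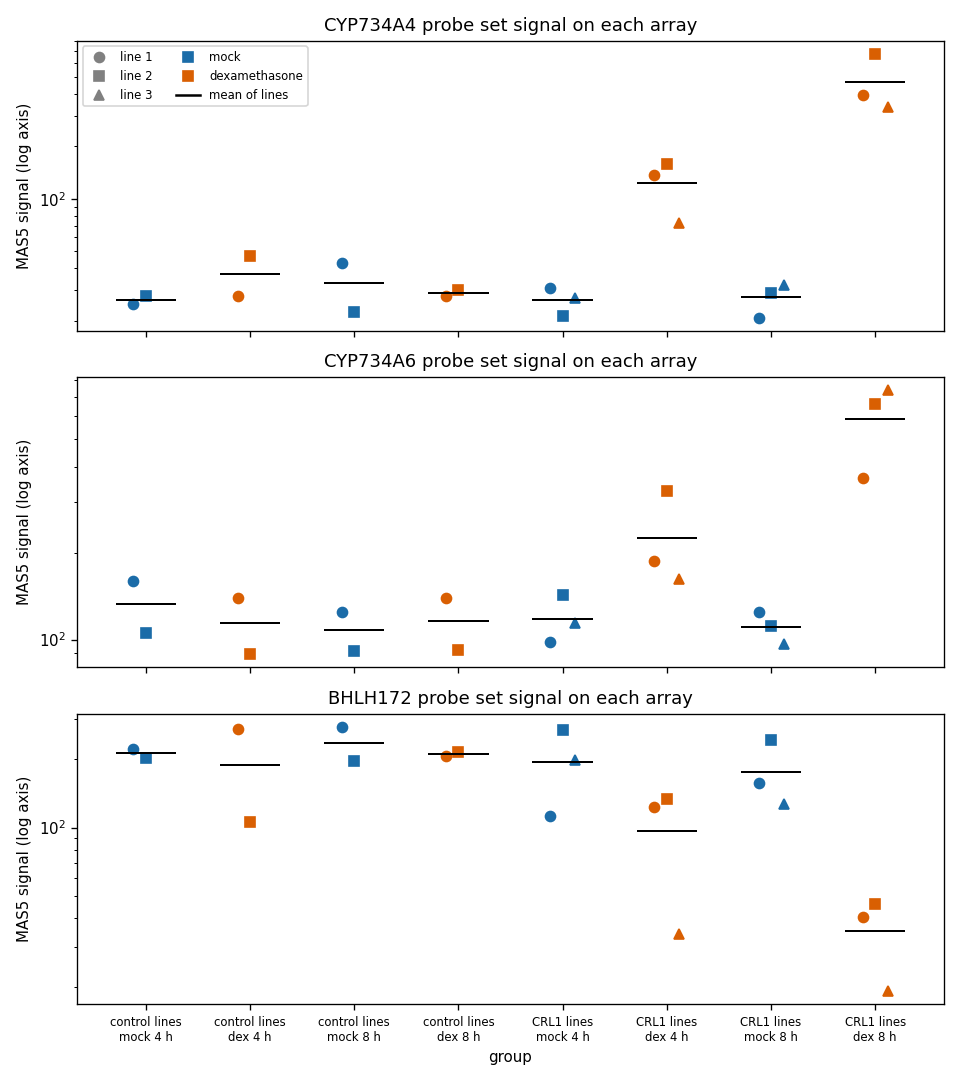
MAS5 signal (log axis) of the CYP734A4, CYP734A6 and BHLH172 probe sets on all 20 arrays, by kind of line, treatment and time; points are lines and black bars are group means. The CYP734A4 and CYP734A6 signals of the 6 induced CRL1 arrays lie above all other arrays, and at 8 h the 3 BHLH172 signals of 19.2 to 46.1 lie below all arrays without induced CRL1.

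In the fit over all probe sets, CYP734A4 was among the probe sets called higher at 4 h (1 of the 3 genes, with 0.414% of all probe sets called higher by limma and 0.0213% lower). At 8 h CYP734A4 and CYP734A6 were among those called higher (2 of 3, with 3.47% of all called) and BHLH172 among those called lower (1 of 3, with 2.91% called). These counts repeat how the genes were picked and are given for that reason alone. CYP734A6 and BHLH172 were not called at 4 h. The call of CYP734A4 at 4 h was lost without CRL1 line 1 or 2, and that of BHLH172 at 8 h without either of the same lines. Groups without overlap were common on these arrays: 10.6% of all probe sets had 3 dexamethasone values above 3 mock values in the CRL1 lines at 8 h, and 13.7% had them below. At 4 h these shares were 6.44% and 7.5%. With 2 values against 2 in the control lines, described next, they were 13.3% above and 12.9% below at 4 h, and 12.2% and 7.56% at 8 h.

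The control lines showed what dexamethasone did to the same transcripts without a CRL1 transgene. Because the difference from these lines was used in the choice, genes with a small response here may have been favoured. None of the 3 genes passed the test there. CYP734A4 stood at 24.9 after mock treatment and 27.7 after dexamethasone in control line 1 at 4 h, and at 27.6 and 46.7 in control line 2. At 8 h it stood at 42.8 and 27.5 in line 1 and at 22.5 and 30 in line 2. The lines thus went the same way at 4 h and opposite ways at 8 h. The log2 change was 0.43 ± 0.40 at 4 h (95% interval -0.41 to 1.28; adjusted p = 1, limma) and -0.11 ± 0.40 at 8 h (-0.95 to 0.74; adjusted p = 1).

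CYP734A6 hardly moved in the control lines. Its signals at 4 h were 159.3 and 139.9 in line 1 and 105.7 and 89 in line 2, mock treatment first. At 8 h they were 124.3 and 139.9 in line 1, and 91.5 and 92.3 in line 2. The difference between the 2 control lines was larger than any difference between treatments within a line, with line 1 brighter in every condition. The log2 change was -0.21 ± 0.37 at 4 h (95% interval -1.004 to 0.57; adjusted p = 1, limma) and 0.09 ± 0.37 at 8 h (-0.70 to 0.88; adjusted p = 1).

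BHLH172 went opposite ways in the control lines at each time. At 4 h it stood at 222.3 after mock treatment and 272.1 after dexamethasone in line 1, and at 201.2 and 106.1 in line 2, the line with the empty vector. At 8 h the signals were 276.5 and 206.4 in line 1 and 196 and 214 in line 2. The 4 h value of 106.1 in control line 2 was the lowest of all arrays without induced CRL1, and it lay below 2 of the 3 CRL1 line signals after dexamethasone at that time. The log2 change was -0.31 ± 0.60 at 4 h (95% interval -1.57 to 0.95; adjusted p = 1, limma) and -0.15 ± 0.60 at 8 h (-1.41 to 1.12; adjusted p = 1). Limma called 0 of 3 genes at either time (0% of all probe sets were called), with 0 of 3 at an unadjusted p under 0.05 and 0 of 3 with line as a block. Over all probe sets 781 at 4 h and 838 at 8 h had an unadjusted p under 0.05. The number of control lines limits what this comparison can show.

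**Figure D2:**
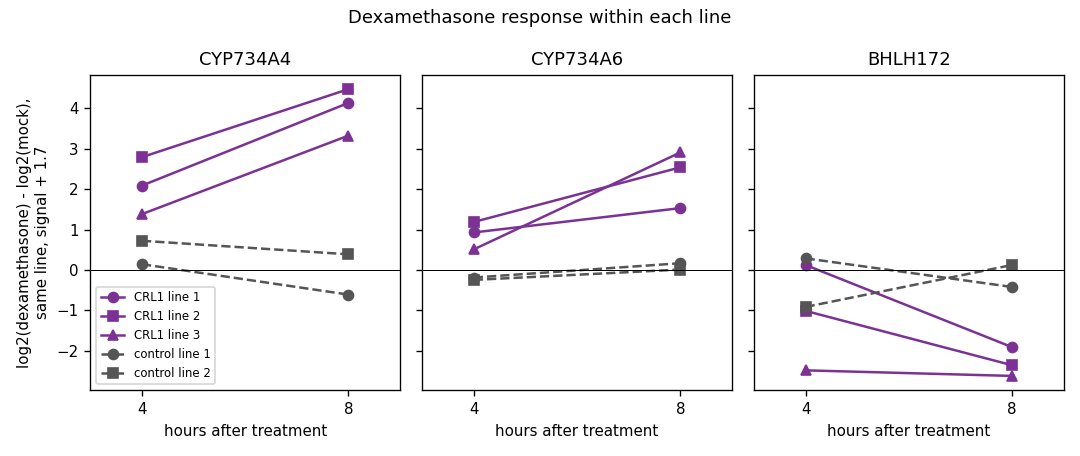
Log2 change from mock treatment to dexamethasone within each line at 4 h and 8 h, in panels for CYP734A4, CYP734A6 and BHLH172; solid lines are the 3 CRL1 lines and dashed lines the 2 control lines. CRL1 line 3 starts lowest for both CYP734A genes (1.38 and 0.51 at 4 h) and has the largest decrease of BHLH172 at both times, while the control lines stay between -0.91 and 0.72.

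Subtracting the control lines' mean response left the log2 values at 8 h nearly as they were, with larger standard errors. The difference between the responses was 4.09 ± 0.51 for CYP734A4, 2.24 ± 0.48 for CYP734A6 and -2.15 ± 0.77 for BHLH172 on the log2 scale at 8 h. At 4 h it was 1.65 ± 0.51, 1.09 ± 0.48 and -0.81 ± 0.77 in the same order. For BHLH172 this 4 h value moved with single lines: it was -0.13 without CRL1 line 3, -0.21 without control line 1 and -1.43 without CRL1 line 1. These differences hold the arrays of the CRL1 lines that served to pick the genes, so no test is attached. In the fit, 2 of the 3 genes, CYP734A4 and CYP734A6, were called for the difference at 8 h, where 0.569% of all probe sets were called higher and 0.14% lower. BHLH172, called lower in the CRL1 lines alone at 8 h, was not called for the difference, also not with line as a block. None was called for it at 4 h (0.00914% of all probe sets called higher). Like the counts in the CRL1 lines alone, these repeat how the genes were picked and add no support.

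From 4 h to 8 h the signals after dexamethasone kept moving in every CRL1 line. The CYP734A4 signal at 8 h was 2.88, 4.30 and 4.60 times that at 4 h in lines 1, 2 and 3. For CYP734A6 the ratio was 1.94, 2.00 and 4.52, and it was largest in line 3, the line with the smallest response at 4 h. For BHLH172 the signal at 4 h was 3.03, 2.89 and 1.78 times that at 8 h, smallest in line 3, where the decrease at 4 h was already the largest. The log2 response at 8 h exceeded that at 4 h by 1.89 ± 0.46 for CYP734A4 and by 1.45 ± 0.43 for CYP734A6, and for BHLH172 the difference was -1.17 ± 0.69.

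Without induction the CYP734A signals of CRL1 and control lines overlapped. The mean CYP734A4 signal after mock treatment was 26.3 ± 4.77 in the CRL1 lines (SD, n = 3) and 26.2 ± 1.91 in the control lines (n = 2) at 4 h, and 27.2 ± 5.70 and 32.6 ± 14.4 at 8 h. Ordered by level, the 6 groups without induced CRL1 overlapped from neighbour to neighbour, and the CRL1 lines after dexamethasone at 4 h (122 ± 44.3) and 8 h (469 ± 184) stood apart from these and from each other. CYP734A6 had the same order at its upper end, with 226 ± 89.0 and 586 ± 195 above 6 overlapping groups with means of 108 to 132. BHLH172 had no such gap. Its means went from 35.2 ± 14.2 in the CRL1 lines after dexamethasone at 8 h and 96.6 ± 54.3 at 4 h up to 236 ± 56.9 in mock-treated control lines at 8 h (n = 2), and each group's range overlapped that of the next.

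Time alone was tested in mock-treated control lines, on arrays without dexamethasone. This comparison was not used to choose the genes, though its arrays enter the difference between CRL1 and control lines that was. The error again came from the fit of all 20 arrays. The log2 change from 4 h to 8 h was 0.23 ± 0.40 for CYP734A4, -0.28 ± 0.37 for CYP734A6 and 0.14 ± 0.60 for BHLH172 (SE, 2 lines; adjusted p = 1 for each, limma). No gene passed, and limma called 0% of all probe sets in this comparison, with 746 at an unadjusted p under 0.05.

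The marker lists of other tissues were followed beside these results. The summed signal of 5 shoot meristem markers measured of 6 listed was 720.9 to 1071 in the CRL1 lines after dexamethasone at 8 h and 1181 to 1390 after mock treatment, and at 4 h the ranges were 1240 to 1448 and 1299 to 1363. At 8 h the sums after dexamethasone thus lay below those after mock treatment, a separation that 13.7% of all single probe sets showed in this direction. Of the 5 markers 1 was called lower, where 2.91% of all probe sets were. The summed signal of 6 root markers of 8 listed, among them QHB, was 784.4 to 1249 after dexamethasone and 286.3 to 802.9 after mock treatment at 4 h, and 592.3 to 605.2 and 262.2 to 693.6 at 8 h. Of these 6, 1 was called higher at each time, where 0.414% of all probe sets were at 4 h and 3.47% at 8 h. The median log2 change of the list was 1.09 at 4 h and -0.28 at 8 h. The 7 vascular markers measured of 9 listed summed to 1313 to 1807 after dexamethasone and 1100 to 1937 after mock treatment at 8 h, with 0 of 6 tested called at either time, and 4 photosynthesis genes of 5 spanned 10740 to 10850 and 9436 to 12100. The lowest signals of any measured meristem, root or vascular marker were 1 for HKT1;5 and 1.6 for LSI2. Both lay below the array medians of 10.1 to 15.5, so not every listed marker was clearly detected. In the control lines the summed root marker signal at 4 h was 863.4 to 943.5 after mock treatment and 687.3 to 1002 after dexamethasone. At 8 h it was 690.7 to 1472 and 387.6 to 842.3. The summed meristem marker signal of the control lines at 8 h was 1635 to 1661 after mock treatment and 1125 to 1899 after dexamethasone. At 4 h the root sums of the CRL1 lines after dexamethasone thus overlapped those of the control lines. The CRL1 lines after mock treatment lay below the mock-treated control lines at that time. The part of tissue composition in the changes of CYP734A4, CYP734A6 and BHLH172 was not tested.

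The other genes of the pathway were read from the same fit. A list of 53 brassinosteroid genes held the 3 genes above. By name, 35 of them were matched to exactly 1 gene of the RefSeq table. For 27 a probe set with exactly 1 gene was found, and 23 besides the 3 genes passed the filter on low signals. Among those without a matched probe set were the synthesis genes D2 and DWARF4, the transcription factor gene DLT and the helix-loop-helix gene ILI1. Genes drop out at the name match too, and 34727 probe sets have no listed gene, so the array may still measure them. At 8 h in the CRL1 lines 2 of the 23 rose and 1 fell, which is 13.0% of the list, where 6.38% of all probe sets were called in either direction. With line as a block 5 of the 23 (21.7%) were called, where that fit called 11.1% of all probe sets. None was called when CRL1 line 1 was left out, and none when line 2 was, whereas 1 was called when line 3 was. The median log2 change of the 23 was -0.01 at 8 h and -0.03 at 4 h, beside -0.04 and -0.02 over all probe sets tested. At 4 h limma called 0 of the 23 (0.435% of all probe sets were called), with 2 at an unadjusted p under 0.05 and 0 called with line as a block.

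Synthesis genes were measured by 3 probe sets, and 1 of them fell. CYP90A4 (LOC4351461), a cytochrome P450 of brassinosteroid synthesis, had signals of 218.9, 296.6 and 271.9 after mock treatment in CRL1 lines 1, 2 and 3 at 8 h and of 168.6, 93.3 and 113.6 after dexamethasone. All dexamethasone values lay below all mock values, least so in line 1. It fell by 1.09 ± 0.29 on the log2 scale (adjusted p = 0.034, limma). Within control lines 1 and 2 the log2 change at 8 h was -0.48 and 0.01, beside -0.37 in CRL1 line 1, -1.65 in line 2 and -1.25 in line 3. The response of the CRL1 lines minus that of the control lines, -0.86 ± 0.46, did not pass (adjusted p = 0.602, limma). Leaving out CRL1 line 1, 2 or 3 gave adjusted p-values of 0.0551, 0.48 and 0.275. CYP90A3 is a closely related gene, and whether this probe set tells them apart was not tested.

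BRD1 (LOC4333399; CYP85A1), the oxidase of late synthesis steps whose loss makes rice severely dwarfed, did not pass the test. Its signal at 8 h was 221.9, 230.6 and 173.8 after mock treatment and 331.6, 526.5 and 605.8 after dexamethasone in CRL1 lines 1, 2 and 3. The dexamethasone values were thus all above the mock values, and the change of 1.18 ± 0.48 on the log2 scale had an adjusted p of 0.182 (limma). It passed without control line 1 (0.0388), without control line 2 (0.0391) and with only the groups compared (0.026), all fits with the same change and fewer arrays behind the error. In control line 1 the mock signal alone, 534.1, was as high. D11, another P450 of synthesis, had a log2 change of 0.36 ± 0.43 (adjusted p = 0.751).

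Among 3 receptor genes BRI1 (LOC4324691), the brassinosteroid receptor kinase, rose. Its signal at 8 h was 611.4, 667.1 and 617.1 after mock treatment and 840.8, 973.1 and 1025.9 after dexamethasone in CRL1 lines 1, 2 and 3. The change was of similar size in all lines and the groups were well separated. It rose by 0.58 ± 0.13 on the log2 scale at 8 h (adjusted p = 0.0147, limma). Leaving out CRL1 line 1, 2 or 3 gave adjusted p-values of 0.0956, 0.107 and 0.154. At 4 h the change within lines was already 0.45 to 0.47, with an adjusted p of 0.257. In the control lines it was 0.09 ± 0.16 at 8 h (adjusted p = 1), and the response of the CRL1 lines minus this one, 0.49 ± 0.21, did not pass (adjusted p = 0.449). BAK1, the co-receptor kinase, had a change of 0.44 ± 0.13 at 8 h that did not pass (adjusted p = 0.0658), and it passed with the stricter filter on signals (0.0455) and in the fit blocked on line (0.0404).

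Of 6 measured signalling genes none was called at 8 h. GSK2, the kinase that represses brassinosteroid signalling, had a log2 change of -0.20 ± 0.16 (95% interval -0.54 to 0.15; adjusted p = 0.607, limma). TUD1, a ubiquitin ligase gene whose mutants respond poorly to brassinosteroids, had a change of -0.40 ± 0.13 and was called only in the fit blocked on line (adjusted p = 0.0408, and 0.088 without the block). Of 9 transcription factor and regulator genes 1 was called at 8 h. BZR2 (LOC4327076), of the BZR family, rose by 0.48 ± 0.12 (adjusted p = 0.0306, limma), from 360.4, 381.4 and 420.5 to 531.6, 634.7 and 462 in lines 1, 2 and 3. Line 3 hardly moved, and leaving out CRL1 line 1, 2 or 3 gave adjusted p-values of 0.273, 0.353 and 0.036. BZR1, of the same family, had a change of -0.01 ± 0.27 (adjusted p = 0.997).

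The helix-loop-helix proteins related to BHLH172 or opposed to it did not pass the test. IBH1, which binds and inhibits such growth-promoting proteins, had a log2 change of -0.12 ± 0.42 at 8 h (95% interval -1.01 to 0.77; adjusted p = 0.937, limma), and another of its probe sets stood at -0.52 (adjusted p = 0.207). ILI6, also PGL1, a small protein of the same kind as BHLH172, was dim, with means of 12.0 ± 0.35 and 12.8 ± 3.16, and had a change of 0.06 ± 0.35. For none of the 23 listed genes was the difference from the control lines' response called at 8 h, with 3 at an unadjusted p under 0.05 and 0 called with line as a block.

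**Figure D3:**
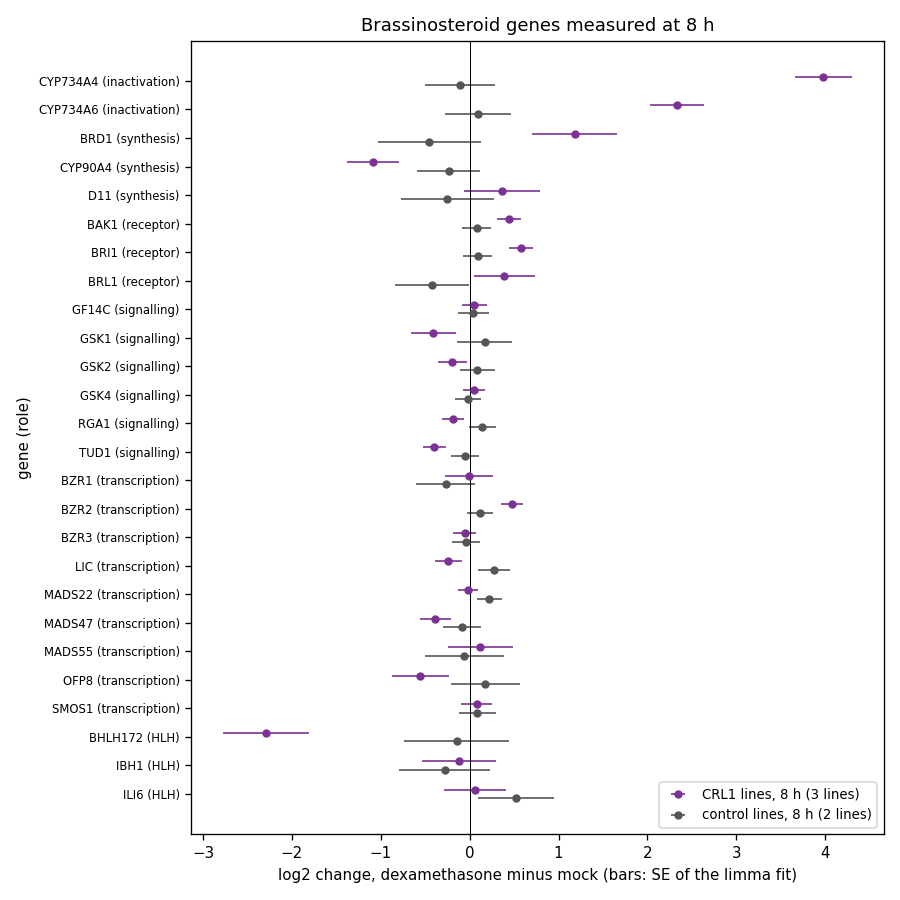
Log2 change from mock treatment to dexamethasone at 8 h for each measured brassinosteroid gene, grouped by role, in the CRL1 lines (3 lines) and the control lines (2 lines); bars are standard errors of the limma fit. The changes of CYP734A4 (3.98), CYP734A6 (2.33) and BHLH172 (-2.29) in the CRL1 lines stand outside those of the other genes, which lie between -1.09 and 1.18. These 3 genes were picked for their change in the CRL1 lines, so their place repeats the choice.

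The genes most like each of the 3 in pattern were sought among 2820 probe sets of genes with a name, by Pearson's r of log2 signals over the 20 arrays. For CYP734A4 these were RFC1, a subunit of the replication clamp loader (r = 0.952), HMG1 (0.948), the abscisic acid hydroxylase gene ABA8OX1 (0.947), the proline transporter gene proT (0.947) and the calcium sensor gene CBL4 (0.944). For CYP734A6 they were TBL13 (0.961), RFC1 (0.955), the auxin-conjugating enzyme gene GH3-1 (0.949), XAT2 (0.947) and the auxin response factor gene ARF2 (0.941). RFC1 was the gene that both lists held. For BHLH172 they were OSKgamma (0.898), PID (0.888), the Aux/IAA genes IAA15 (0.887) and IAA24 (0.875), and NEK2 (0.886). The arrays fall into those with induced CRL1 and those without, and they share lines and treatments, so these values are a description. At r of 0.9 or more there were 20 such probe sets for CYP734A4, 19 for CYP734A6 and 0 for BHLH172.

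On the 14 arrays without induced CRL1 the likeness of the CYP734A genes was not seen. CYP734A4 and CYP734A6 had an r of 0.903 over all 20 arrays and of -0.396 over the 14. CYP734A4 and BHLH172 had -0.797 and -0.311. CYP734A6 and BHLH172 had -0.721 over all arrays and 0.613 over the 14, so that the sign differed. The 5 genes closest to CYP734A4 had an r with it of -0.29 to 0.42 over the 14 arrays. Those closest to CYP734A6 had 0.33 to 0.59, and those closest to BHLH172 0.46 to 0.70.

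Genes next to the 3 on their chromosomes, in the order of the RefSeq assembly, were also read, with the nearest 3 on each side that had a tested probe set. Around CYP734A4 none of the 6 was called at 8 h in the CRL1 lines, with log2 changes of -0.30 to 0.46, and one of them was another P450 gene, CYP76M7, at 0.39 ± 0.34. Around CYP734A6, 1 of 6 was called, LOC4325432, which lies 12 annotated genes away and rose by 3.46 ± 0.36 (adjusted p = 2.95e-05, limma). Its log2 change at 4 h was 0.30. Around BHLH172, 2 of 6 were called, LOC4340552 higher by 0.44 ± 0.12 and LOC4340553 lower by 0.71 ± 0.20 (adjusted p = 0.0428 and 0.041). All 3 counts are read beside the 6.38% of all probe sets called in this comparison.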

How the data were processed

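RNA of stem bases was hybridised to Affymetrix rice arrays, 1 per sample. The deposited intensity values are linear MAS5 signals; the submitters' processing notes name Affymetrix Expression Console as the tool, and versions are not given in the sources used here. No 2 arrays were identical. Of 57381 probe sets, 123 controls were left out; the annotation gave 22436 exactly 1 gene, gave 95 more than 1 gene and left 34727 unnamed. The platform annotation gave gene numbers, named through the RefSeq table of ASM3414082v1; the array's genome build was not given, so no coordinates are printed. No sequences were used here.

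Values were log2(signal + 1.7), the offset being the 20th percentile of all signals, so changes of dim transcripts are understated. The 32836 probe sets above their array's median on at least 3 arrays were tested with limma 3.58.1 (R 4.3.3) in a model of 8 group means, trended empirical Bayes variance, 12 residual degrees of freedom and Benjamini-Hochberg adjustment at 0.05 over all of them. The number of arrays limits the precision. The arrays of a line were taken as independent. They are paired by line in the labels, and deviations of a line's mock and dexamethasone arrays correlated at 0.0213 to 0.174 in the CRL1 lines and at 0.514 (4 h) and 0.621 (8 h) in the control lines, where 2 lines deviate in mirror image. With line as a fixed block, calls were 296 higher and 58 lower at 4 h, and 1737 and 1906 at 8 h, in the CRL1 lines. A gene with several probe sets was represented by the brightest. The fit was checked on simulated data.

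A marker name given to more than 1 gene (SUT2) was left out. The genes and lists were chosen with earlier results of these data known. Named genes were the CYP734A genes and BHLH172, every called gene of the brassinosteroid list (at most 6 per direction), 10 pathway genes named whether called or not, and the 5 named genes with the highest r for each of the 3. Neighbouring genes, BAK1, TUD1 and ILI6 were added after their values were seen. Alternatives left out each line in turn, weighted the arrays, blocked on line, restricted the fit to the groups compared, normalized by quantiles, or used another offset or filter. Figures used matplotlib 3.10.9.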

Additional observations from a re-analysis of the deposited data

Results flagged for a closer look

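The responses below had one sign in every CRL1 line and the opposite sign in every control line. They come from the 3 genes and the 23 listed genes at both times. No share over all probe sets is given here, and with 3 lines against 2 such signs can arise without a response. Each value is the log2 response of the CRL1 lines minus that of the control lines. For CYP734A6 at 4 h the difference was 1.09 (0.88 against -0.21), and it was not tested because the gene was chosen for its response. For BRD1 at 8 h it was 1.64 (1.18 against -0.45; adjusted p = 0.498, limma). For BAK1 at 4 h it was 0.17 (adjusted p = 1) and for GSK2 at 4 h 0.10 (adjusted p = 1). The BAK1 response in CRL1 line 3 at 4 h was only 0.0019. At 8 h it was -0.28 for GSK2 (adjusted p = 0.839) and -0.33 for RGA1, a G protein alpha subunit gene (adjusted p = 0.655). None of the 5 tested differences passed the test. Groups of 2 or 3 arrays were too small for a check of single outlying arrays.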

How the results depend on the processing

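The log2 changes of CYP734A4, CYP734A6 and BHLH172 in the CRL1 lines kept their sign under all 13 alternatives: 1.74 to 2.44, 0.72 to 1.06 and -1.75 to -0.44 at 4 h, and 3.57 to 4.30, 2.04 to 2.73 and -2.49 to -1.99 at 8 h. The smallest decrease of BHLH172 at 4 h was that without CRL1 line 3. Small changes in the control lines turned their sign when 1 control line was left out, with ranges for CYP734A4 of -0.61 to 0.39 at 8 h and -0.28 to 0.74 for time, and for BHLH172 of -0.91 to 0.29 at 4 h, -0.42 to 0.13 at 8 h and -0.0375 to 0.31 for time.

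Counts of called probe sets moved more. In the CRL1 lines at 4 h (143) the count was 231 with only the groups compared, 354 with line as a replicate block, 414 with array weights and 12 to 226 leaving out a line. At 8 h (2095) it was 3643 with the block and 478 to 2771 leaving out a line. The CRL1 minus control difference (3 at 4 h) gave 1 with quantile normalization, 1 with only the groups compared, 5 with array weights and 0 to 6 leaving out a line. At 8 h (233) it gave 75 with only the groups compared, 717 with the block, 58 with array weights and 63 to 167 leaving out a line. In the control lines leaving out a line gave 0 to 4 calls at 4 h and, for time, 0 to 11. The brassinosteroid list at 8 h (3) gave 5 with the block and 0 to 4 leaving out a line, and with only the groups compared BRD1 was called and BZR2 was not. Fewer arrays were fitted in the settings that leave out a line or groups. For the other shifts the cause was not tested. Beside BAK1 and TUD1, the block changed no call of the 3 genes or of the brassinosteroid list.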
